A study of Mus musculus with 10 samples.

Results

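The CC chemokine ligands described here are 10 mouse genes, Ccl2, Ccl3, Ccl4, Ccl5, Ccl6, Ccl7, Ccl8, Ccl9, Ccl12 and Ccl24, taken by name from the 55487 genes of the count tables, and all 10 were counted in each of the 10 libraries. The study asked what the transcription factor C/EBPβ does in macrophages of the mammary gland. RNA was sequenced from 10-week-old female BALB/c mice in diestrus, the phase of the estrous cycle dominated by progesterone. WT mice were Csf1r-Cre neg;Cebpb fl/fl and Cebpb ΔM mice were Csf1r-Cre pos;Cebpb fl/fl, so both genotypes carried the floxed allele and differed in a Cre transgene driven by the Csf1r promoter, which is active in macrophages and other myeloid cells. The labels call the second genotype a C/EBPb knockdown. Mammary macrophages, enriched by positive selection for F4/80, gave libraries WT 4 and 5 and Cebpb ΔM 4 to 7. Mammary epithelial cells (MECs), enriched by removing cells of other lineages, gave libraries WT 1 and 3 and Cebpb ΔM 1 and 3. The labels do not say which animals or pools a library came from, so the tests measure the spread between these libraries, which may be technical.

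Chemokines are small secreted proteins that attract leukocytes, and those of the CC family carry a pair of adjacent cysteines near the amino terminus. They act through G protein-coupled receptors on the responding cell. CCL2, CCL7 and CCL12 draw monocytes through CCR2, CCL3, CCL5, CCL6 and CCL9 act through CCR1, and CCL24 draws eosinophils through CCR3. In the mammary gland, chemokines are known to bring in macrophages and eosinophils during ductal growth.

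Of the 10 genes, 9 lie in 2 groups on chromosome 11 of GRCm38. Ccl2, Ccl7, Ccl12 and Ccl8, with Ccl11 among them, span chr11:82035571-82116799, and Ccl5, Ccl9, Ccl6, Ccl3 and Ccl4 span chr11:83525778-83664683. Ccl24 lies alone among the members at chr5:135569937-135573049 on the minus strand. All 10 are protein coding. Ccl6 and Ccl2 each overlap 1 gene on the opposite strand, and the counting used strand. RefSeq promoters on GRCm38.p6 matched 5 members, Ccl3, Ccl6, Ccl8, Ccl9 and Ccl12. Those of Ccl8 and Ccl12 are shown because these neighbours stand 11.8 kb apart and, in macrophages, Ccl8 levels did not overlap between genotypes whereas Ccl12 levels did, and that of Ccl9 because it belongs to the other group. Each line gives the 250 bases before the start of the gene, 5′ to 3′ on the strand of the gene, with capitals for matches on either strand to the TATA box letters TATAAA, the PU.1 letters GAGGAA or the AP-1 letters TGANTCA, where overlapping matches run together.
Ccl8: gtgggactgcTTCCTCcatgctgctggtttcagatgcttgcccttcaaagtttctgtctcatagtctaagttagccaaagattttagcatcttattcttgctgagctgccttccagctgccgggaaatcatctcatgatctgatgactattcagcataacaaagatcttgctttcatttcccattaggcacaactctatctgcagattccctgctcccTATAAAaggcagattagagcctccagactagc
Ccl12: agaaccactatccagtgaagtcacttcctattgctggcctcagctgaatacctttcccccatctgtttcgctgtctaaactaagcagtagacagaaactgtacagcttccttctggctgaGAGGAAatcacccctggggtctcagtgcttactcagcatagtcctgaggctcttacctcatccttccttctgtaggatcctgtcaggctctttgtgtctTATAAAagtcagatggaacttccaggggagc
Ccl9: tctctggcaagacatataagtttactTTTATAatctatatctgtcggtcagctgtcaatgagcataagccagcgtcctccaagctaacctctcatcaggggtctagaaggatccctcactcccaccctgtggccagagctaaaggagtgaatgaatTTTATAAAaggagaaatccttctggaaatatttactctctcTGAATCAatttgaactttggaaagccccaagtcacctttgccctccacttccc
The Ccl8 sequence is chr11:82114935-82115184 on the plus strand, the Ccl12 sequence chr11:82101595-82101844 on the plus strand and the Ccl9 sequence chr11:83578637-83578886 on the minus strand. Each holds a TATAAA in one orientation or the other, which 12.4% of 32817 promoters of this length do. The PU.1 letters, in Ccl8 and Ccl12, are in 23.3% of promoters and the AP-1 letters, in Ccl9, in 6.75%. The C/EBP letters TTGCNNAA, which 9.57% of promoters hold on either strand were not in these windows of the 5 members.

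The macrophage libraries held 16935000 to 20174722 counts and the MEC libraries 25310926 to 27008166. Cebpb itself had 13 and 15 counts in WT macrophages and 16, 13, 5 and 4 in Cebpb ΔM macrophages, too few to check the macrophage labels. It overlaps Tmem189 on the opposite strand, which had 2225 counts over the 6 macrophage libraries, and the counting used strand. In MECs it had 25 and 28 counts in WT and 69 and 42 in Cebpb ΔM. Markers of other cells were present in the macrophage libraries. Summed over their lists, 8 luminal markers reached 9476 and 9554 CPM (counts scaled to a common library size) in WT and 5004 to 6470 CPM in Cebpb ΔM, and 6 fibroblast markers 6539 and 6960 CPM in WT and 3239 to 7585 CPM in Cebpb ΔM. The sums of 6 basal markers overlapped, at 766 and 1127 CPM in WT and 706 to 2820 CPM in Cebpb ΔM. Those of 6 milk protein genes also did, at 79.0 and 120 CPM in WT and 61.6 to 769 CPM in Cebpb ΔM. All 6 basal markers and all 5 milk protein genes tested had log2 fold changes above 0. Csn2, Csn1s2a and Lalba, with WT means of 0.0238, 0 and 0.583 CPM, passed the filter on low values only through Cebpb ΔM libraries. Their signs were thus set by the filter. With replicate number as a block, edgeR's quasi-likelihood test called Krt14, Krt5, Oxtr, Acta2, Csn1s1, Csn2 and Csn1s2a higher and the luminal Krt19 lower (adjusted p from 0.000344 to 0.0418). The luminal sums did not overlap between genotypes, and 1 of the 8 luminal markers had a log2 fold change above 0. Without the block, Krt8 and Krt18 were called lower by the likelihood ratio test (adjusted p = 0.00402 and 0.0156) and by DESeq2 (adjusted p = 0.000165 and 0.00129). The sum of 12 macrophage markers, among them Adgre1, which encodes F4/80, was 3985 and 6229 CPM in WT and 7213 to 9784 CPM in Cebpb ΔM, without overlap. The sum of 6 dendritic cell markers was 171 and 261 CPM in WT and 289 to 581 CPM in Cebpb ΔM, also without overlap. That sum rests mainly on Cd209a, with means of 155 CPM in WT and 314 CPM in Cebpb ΔM, and Siglech, with means of 22.0 and 78.8 CPM (adjusted p = 0.435 and 0.417 by edgeR's quasi-likelihood test). Siglech had an adjusted p of 0.000246 by the likelihood ratio test and 0.0304 by the quasi-likelihood test with the replicate block. The other 4 overlapped between genotypes. The macrophage and dendritic cell differences move with genotype in the same direction as the ligands below, and the part of dendritic, luminal, basal, milk protein-producing and fibroblast cells in the ligands' differences was not tested. In such bulk libraries, fewer cells of a type and less RNA per cell cannot be told apart.

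In macrophages, the ligands ranged widely in level. By CPM per kb of counted length, Ccl6 was highest, with a mean of 576.3 and a range of 315 to 903 over the 6 libraries. Ccl8 followed at 359, then Ccl9 at 175, Ccl7 at 158, Ccl24 at 146 and Ccl2 at 143 CPM per kb. Ccl6 stood above Ccl8, and Ccl8 above Ccl9, in each of the 6 libraries, although their ranges overlapped. Ccl9, Ccl7, Ccl24 and Ccl2 did not keep a fixed order. These means pool 2 WT and 4 Cebpb ΔM libraries. In WT alone, Ccl24 had a mean of 69.0 CPM per kb, below Ccl2 at 122 and Ccl7 at 119 without overlap, and in Cebpb ΔM it had rank 4, at 184.8 CPM per kb. The mean of Ccl8 was 189 CPM per kb in WT and 444 in Cebpb ΔM. Below them came Ccl4 at 37.9, Ccl12 at 29.7, Ccl3 at 17.2 and Ccl5 at 2.16 CPM per kb. No library of Ccl4 reached the lowest of Ccl2, and none of Ccl5 reached the lowest of Ccl3. Ccl6 alone took 40.0% to 48.6% of the summed CPM of the 10 ligands in these libraries.

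Ccl8, a ligand that draws monocytes and T cells, was the member with the smallest p for genotype. It measured 92.6 and 100.4 CPM in WT macrophages and 193, 199.5, 231 and 284 CPM in Cebpb ΔM macrophages. Every Cebpb ΔM library was above both WT libraries, and the fitted difference was 2.31-fold (log2 fold change 1.21, SE 0.20). It did not pass edgeR's quasi-likelihood test after adjustment over 17772 genes (adjusted p = 0.417). By the likelihood ratio test of edgeR, the test that the study's methods name, it did (adjusted p = 0.000988), as by DESeq2 (adjusted p = 5.12e-05).

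Ccl24, or eotaxin-2, measured 84.6 and 94.1 CPM in WT macrophages and 160.5, 208, 275 and 314 CPM in Cebpb ΔM macrophages. The groups did not overlap, and the difference was 2.63-fold (log2 fold change 1.40, SE 0.27, adjusted p = 0.417 by edgeR's quasi-likelihood test). The likelihood ratio test gave an adjusted p of 0.00367 and DESeq2 0.000672. Over all alternatives, the adjusted p of Ccl24 ranged from 0.000672 to 0.673 and that of Ccl8 from 5.12e-05 to 0.673. The summed eosinophil markers were 21.4 and 25.5 CPM in WT and 37.4 to 95.9 CPM in Cebpb ΔM. Of these 8 markers 3 passed the filter on low values, and all 3 had log2 fold changes above 0. Ear2, a ribonuclease of eosinophils also found in some macrophages, had a mean of 18.1 CPM in WT and 53.9 CPM in Cebpb ΔM without overlap (2.92-fold, adjusted p = 0.417 by edgeR's quasi-likelihood test, 0.0225 by the likelihood ratio test and 0.00802 by DESeq2). Siglecf was 2.17-fold and Ccr3 1.70-fold higher in the fit, with groups that overlapped (adjusted p = 0.584 and 0.832 by edgeR). Ear6 was at 0 in the macrophage libraries, and Epx, an eosinophil granule enzyme, had counts in 1 of them. Prg2, another granule protein gene, overlapped between genotypes, with 0 and 34 counts in WT and 3, 18, 5 and 10 counts in Cebpb ΔM. The part of these cells in the Ccl24 result was not tested.

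Ccl7 and Ccl2, neighbours that share the receptor CCR2, differed less. Ccl7 measured 90.7 and 100.6 CPM in WT macrophages and 132, 161, 144 and 133 CPM in Cebpb ΔM macrophages, again without overlap (log2 fold change 0.55, SE 0.17, adjusted p = 0.432 by edgeR). Ccl2 measured 136 and 142 CPM in WT and 149, 176, 178 and 193 CPM in Cebpb ΔM (log2 fold change 0.30, SE 0.16, adjusted p = 0.586 by edgeR). The lowest Cebpb ΔM library of Ccl2 was thus close to the highest WT library. Ccl12, a mouse ligand of the same receptor, overlapped between the genotypes, with 14.7 and 8.75 CPM in WT and 16.7, 28.9, 17.7 and 9.17 CPM in Cebpb ΔM (log2 fold change 0.62, SE 0.43, adjusted p = 0.684 by edgeR).

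**Figure D1:**
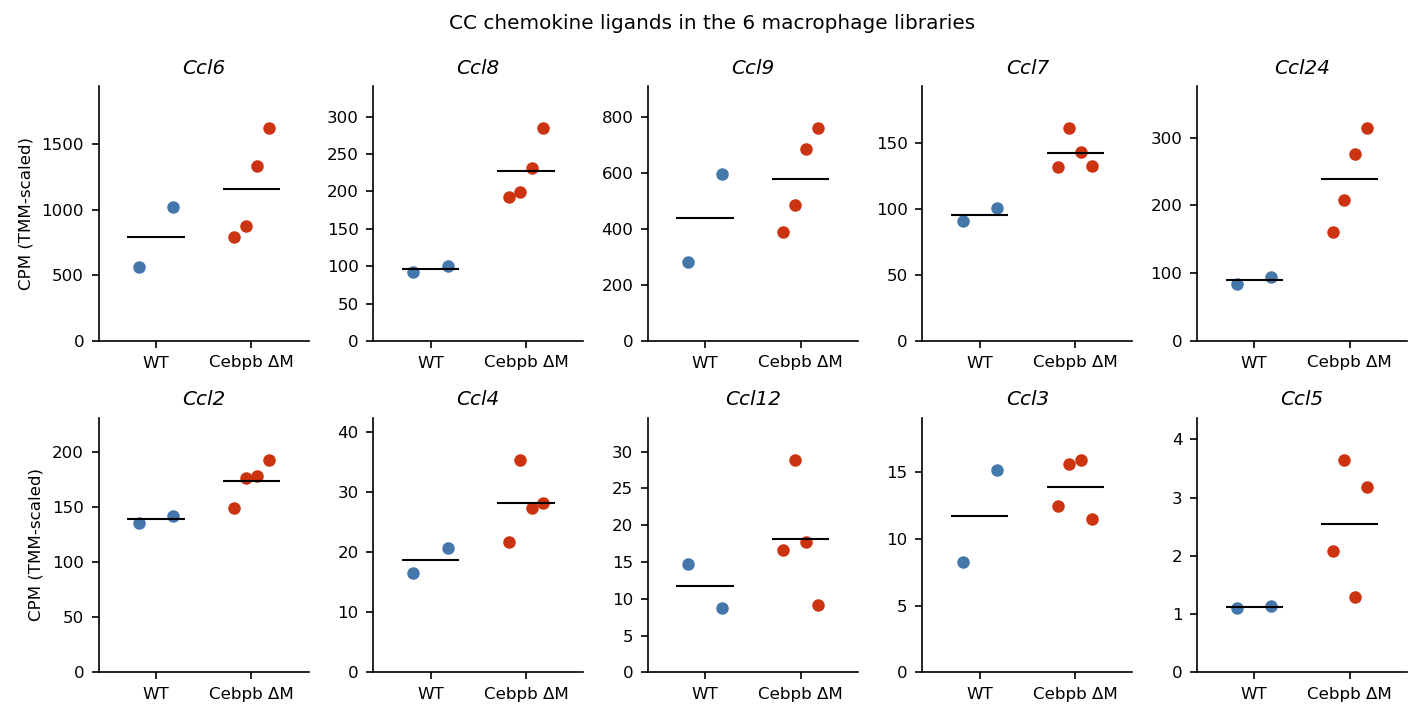
Each panel plots the TMM-scaled CPM of 1 ligand in the WT (blue, n = 2) and Cebpb ΔM (red, n = 4) macrophage libraries, with a point per library and a line at the group mean. Ccl8 lies at 92.6 and 100.4 CPM in WT and at 193 to 284 CPM in Cebpb ΔM, whereas the Ccl6, Ccl9, Ccl12 and Ccl3 groups overlap.

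The ligands of the second group on chromosome 11 included the 2 highest by CPM. Ccl6 measured 565 and 1019 CPM in WT macrophages and 792, 876, 1335 and 1620 CPM in Cebpb ΔM. Ccl9 measured 281 and 596 CPM in WT and 389, 487, 686 and 760 CPM in Cebpb ΔM. The groups overlapped for both, since WT 5 exceeded 2 of the Cebpb ΔM libraries, and neither passed edgeR's test (log2 fold change 0.52, SE 0.34, adjusted p = 0.660 for Ccl6 and 0.38, SE 0.34, adjusted p = 0.777 for Ccl9). Without WT 4, the log2 fold change of Ccl9 was -0.066. Ccl4 measured 16.5 and 20.8 CPM in WT and 21.7, 35.4, 27.4 and 28.3 CPM in Cebpb ΔM (log2 fold change 0.57, SE 0.25, adjusted p = 0.511 by edgeR). Its neighbour Ccl3 measured 8.26 and 15.2 CPM in WT and 12.5, 15.6, 15.9 and 11.5 CPM in Cebpb ΔM (log2 fold change 0.22, SE 0.31, adjusted p = 0.866 by edgeR), and without WT 4 its log2 fold change was -0.15. Ccl5, a ligand best known from T cells, was the lowest member in macrophages, at 1.10 and 1.14 CPM in WT and 2.08, 3.65, 1.30 and 3.18 CPM in Cebpb ΔM, without overlap (log2 fold change 1.16, SE 0.60, adjusted p = 0.574 by edgeR). These rest on 22 and 24 counts in WT and 41, 75, 24 and 53 counts in Cebpb ΔM. The summed CPM of 7 T cell markers was 6.11 and 11.03 in WT and 12.2 to 22.9 in Cebpb ΔM, also without overlap. Cd4 made up most of that difference, with means of 2.09 CPM in WT and 7.98 CPM in Cebpb ΔM, and it was the 1 marker of the 7 without overlap. The part of these markers in the Ccl5 result was not tested.

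All 10 ligands had a log2 fold change above 0 in macrophages, where 50.4% of all genes tested did. Once the libraries were scaled to the macrophage markers as described below, 3 of the 10 did, beside 1700 of 17772 genes. Before that scaling the median of the 10 was 0.56, beside 0.00 over all genes tested and 0.60 over the 12 macrophage markers. Those markers were also all above 0. The ligands' median depended on the WT libraries, at 0.45 without WT 4 and 0.88 without WT 5. By edgeR's quasi-likelihood test 0 of the 10 passed an adjusted p of 0.05, as did 0% of all genes tested. An unadjusted p under 0.05 was found for 4, as for 9.76% of all genes. That number was 2 without WT 4 (1677 of 17452 genes) and 5 without WT 5 (1656 of 17442 genes). Scaled to the macrophage markers it was 0 (6731 of 17772 genes). The likelihood ratio test called 2, Ccl8 and Ccl24, beside 0.777% of all genes, and DESeq2 called the same 2 beside 1.13% of all genes. Of the 10 ligands, 6 were higher in Cebpb ΔM without overlap, as were 10.4% of all genes tested.

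**Figure D2:**
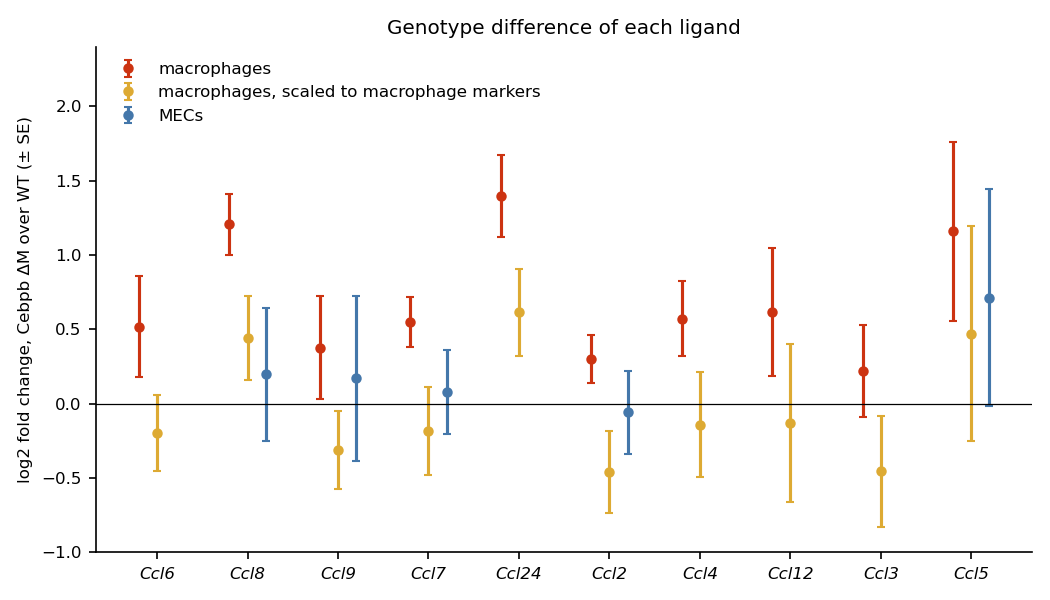
The log2 fold change of Cebpb ΔM over WT with its standard error is plotted for each ligand in macrophages (red), in macrophages scaled to the macrophage markers (yellow) and in MECs (blue, the 5 ligands tested there). Each red point lies above 0, and in yellow only Ccl24 (0.62), Ccl8 (0.44) and Ccl5 do. On the yellow scale, 1700 of 17772 genes tested were above 0.

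Each ligand was also set against the macrophage markers of its own library. Of these, C1qa, C1qb and C1qc had means of 1004, 871 and 456 CPM in WT and 1765, 1428 and 1077 CPM in Cebpb ΔM. By the quasi-likelihood test C1qa and C1qc did not pass (adjusted p = 0.417 for both). The likelihood ratio test called C1qc (adjusted p = 0.00620), and DESeq2 called C1qa and C1qc (adjusted p = 0.0344 and 0.000893). The marker sum thus holds genes called for genotype by some tests, and is not a measure of macrophage content alone. Ccl8 came to 2.32% and 1.61% of the summed marker CPM in WT macrophages and 2.68%, 2.64%, 2.36% and 2.99% in Cebpb ΔM. Ccl24 came to 2.12% and 1.51% in WT and 2.23%, 2.76%, 2.81% and 3.31% in Cebpb ΔM. These 2 ligands were higher in Cebpb ΔM without overlap, as were 1.21% of all genes on this scale. The gaps were narrow, and the groups of Ccl8 all but met, at 2.32% in WT 4 and 2.36% in Cebpb ΔM 6. Ccl3 was at 0.2073% and 0.2434% in WT and 0.1214% to 0.2067% in Cebpb ΔM, so that its groups all but met, and 43.6% of all genes were lower without overlap. The other 7 overlapped. With the libraries scaled to these markers in edgeR, a choice made after seeing the data, the median log2 fold change of all genes moved to -0.73, that of Ccl24 to 0.62 and that of Ccl8 to 0.44 (adjusted p = 0.673 for both). The 10 ligands together came to 32.4% and 33.7% of the marker CPM in WT and 25.9% to 35.4% in Cebpb ΔM. The part of the macrophage content in the ligands' differences was not tested beyond these values.

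**Figure D3:**
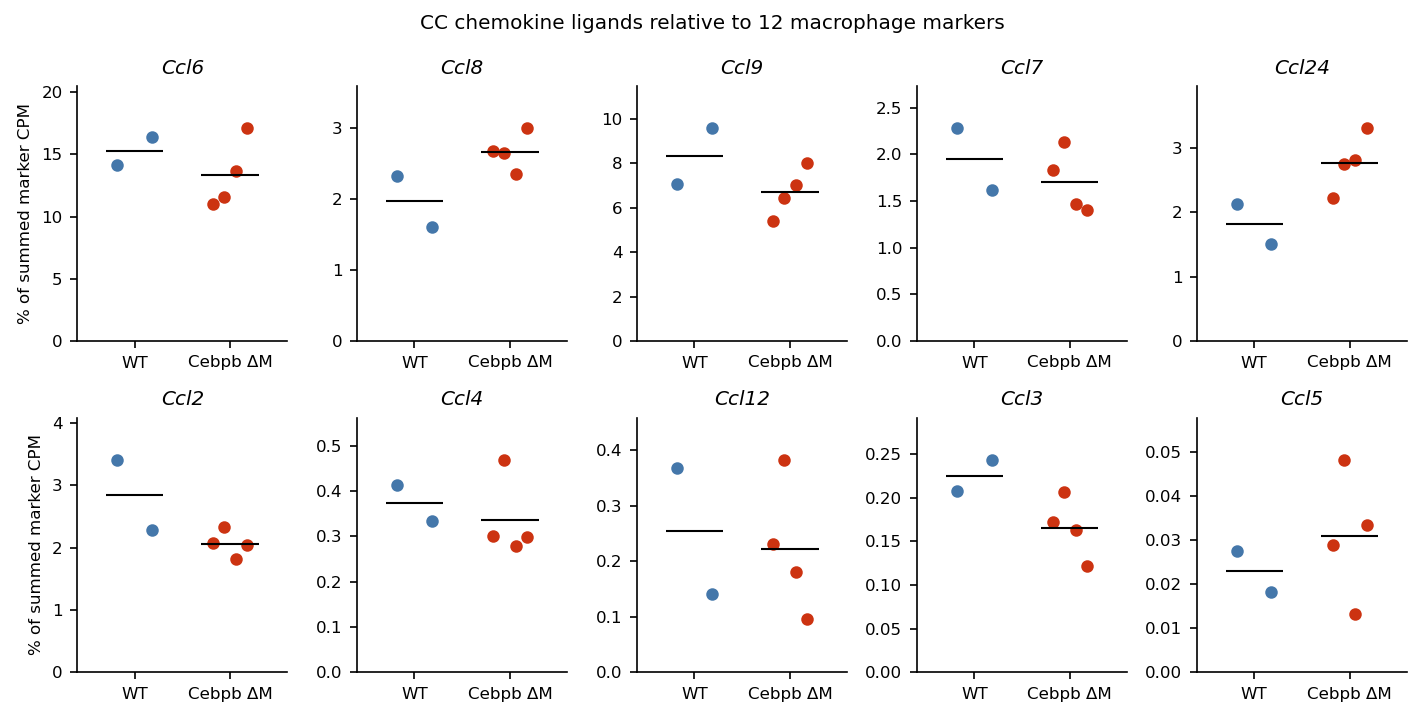
Each panel plots 1 ligand as a percentage of the summed CPM of 12 macrophage markers in the same library, for WT (blue, n = 2) and Cebpb ΔM (red, n = 4) macrophages, with a line at the mean. Ccl8 and Ccl24 are higher in every Cebpb ΔM library than in either WT library, the groups of Ccl8 and of Ccl3 all but meet, and the other 7 overlap.

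MECs held far less of most ligands. Ccl2 measured 49.7 and 28.2 CPM in WT MECs and 33.7 and 39.8 CPM in Cebpb ΔM MECs, and Ccl7 37.7 and 23.4 CPM in WT and 26.5 and 36.8 CPM in Cebpb ΔM. These were the highest members in MECs by CPM per kb, with Ccl7 at 38.8 and Ccl2 at 33.3. Ccl8 followed at 2.72 to 6.17 CPM. Ccl5 ranged from 0.504 to 5.68 CPM, both in Cebpb ΔM. Ccl9, Ccl6, Ccl4 and Ccl3 had at most 31, 13, 8 and 4 counts in a library, and Ccl12 and Ccl24 had 0 in all 4, where the limit for a count of 0 is 3 counts, or 0.111 to 0.119 CPM before scaling. For genotype in MECs, 5 members could be tested, Ccl2, Ccl5, Ccl7, Ccl8 and Ccl9, and each overlapped between genotypes. By edgeR's quasi-likelihood test 0 of the 5 passed, beside 0.051% of the 15698 genes tested. At an unadjusted p under 0.05 there were 0 members beside 5.54% of genes, and the likelihood ratio test and DESeq2 called 0 beside 1.14% and 1.03%. Their log2 fold changes lay between -0.06 (Ccl2) and 0.71 (Ccl5). Without Cebpb ΔM 3, Ccl5 passed at a log2 fold change of 1.58 (adjusted p = 0.0493 by edgeR), in a fit that called 2.31% of 15318 genes. That fit has 1 Cebpb ΔM library, which is assumed to vary like the WT libraries. Without Cebpb ΔM 1 the value of Ccl5 was -1.85.

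Macrophages exceeded MECs for 9 of the 10 ligands in both genotypes by edgeR's quasi-likelihood test over 10 libraries. In that fit 16% of 18323 genes were called higher in macrophages in WT and 20.5% in Cebpb ΔM. Ccl3, Ccl4, Ccl6, Ccl12 and Ccl24 stayed below 1 CPM in every MEC library, so they passed the filter only through macrophages. For these ligands the call is thus no test of direction, and their levels are given as a description. Ccl2 was 3.57-fold higher in WT (adjusted p = 0.000289 by edgeR) and 4.74-fold higher in Cebpb ΔM, and Ccl7 3.13-fold and 4.50-fold higher. Ccl8 was 23.8-fold higher in WT and 49.6-fold higher in Cebpb ΔM, and Ccl9 479-fold and 570.1-fold. Against the floor of 3 counts per library, Ccl24 was at least 736-fold higher in WT macrophages and Ccl12 at least 96.4-fold higher. Ccl3 had 2 counts over both WT MEC libraries, which gives a ratio of 292 with a 95% counting interval of 80.3 to 2414. Ccl5 was the exception, with 1.10 and 1.14 CPM in WT macrophages and 1.66 and 2.11 CPM in WT MECs (log2 fold change -0.74, SE 0.96, adjusted p = 0.600 by edgeR). The cell types were selected in different ways and numbered apart, so cell type and preparation cannot be told apart.

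**Figure D4:**
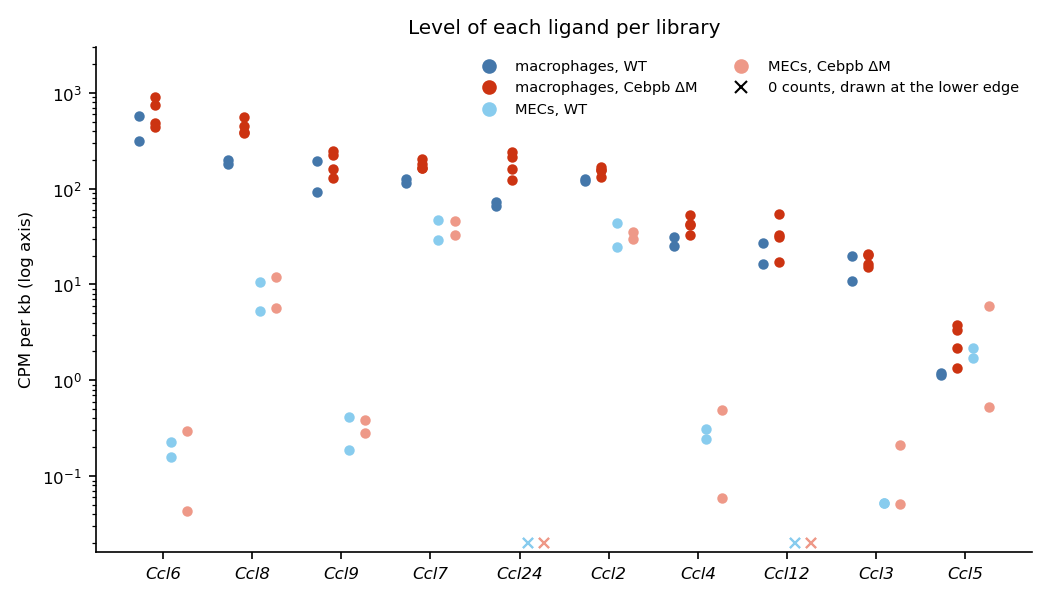
The level of each ligand in CPM per kb is plotted on a log axis for each library of macrophages and MECs of both genotypes, with crosses at the lower edge for 0 counts. By ratio, Ccl6 and Ccl9 separate the cell types most among members with counts in both, although the counting interval of Ccl3 in WT reaches 2414. Ccl2 and Ccl7 lie closest apart from Ccl5, and Ccl12 and Ccl24 have no counts in MECs.

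The share of the macrophage level found in MECs differed between ligands. In WT it was 28.0% for Ccl2, 31.9% for Ccl7, 4.19% for Ccl8, 0.207% for Ccl9 and 0.0435% for Ccl6. The summed macrophage markers in MECs came to 0.699% of their macrophage level and the fibroblast markers to 86.9%. Ccl11, an eosinophil attractant between Ccl7 and Ccl12 on the chromosome, came to 91.5%. The part of fibroblasts in the MEC levels of Ccl2 and Ccl7 was not tested.

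The difference between the genotype effects in macrophages and in MECs was fitted as an interaction for 8 members, since Ccl12 and Ccl24 had 0 counts in MECs. By edgeR's quasi-likelihood test 0 of the 8 passed, as did 0% of the 18323 genes, with 5.25% of genes and 1 member, Ccl8, at an unadjusted p under 0.05. That number of members was 0 with the replicate block (1362 of 18323 genes) and with RLE in place of TMM scaling (950 of 18323 genes). It was 0 without macrophage Cebpb ΔM 5 (814 of 18090 genes), 6 (880 of 18137 genes) or 7 (1034 of 18185 genes). Without macrophage Cebpb ΔM 4 it was 1 (1143 of 18095 genes). Fits without a WT macrophage or a MEC library leave 1 library in a group and are not counted here. The Ccl8 difference was 1.06 on the log2 scale (SE 0.49, adjusted p = 0.947), and the likelihood ratio test called 0 members.

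Other genes of the pathway were followed as lists, tested in macrophages with edgeR's quasi-likelihood test. The CC receptors were led per kb by Ccrl2, an atypical receptor that binds chemerin, at 99.8 and 118 CPM in WT and 131 to 207 CPM in Cebpb ΔM. Of 14 other CC ligands 3 were tested and 0 passed, and Ccl11, the highest, measured 44.7 and 42.2 CPM in WT and 26.5 to 66.1 CPM in Cebpb ΔM. All 3 atypical receptors were tested and 0 passed. Ackr1, found on venular endothelium, overlapped between genotypes at 397 to 460 CPM in WT and 160 to 455 CPM in Cebpb ΔM. Of 24 receptor signalling genes, led by Cdc42, 0 passed and the median log2 fold change was 0.33, beside 0.00 over all genes tested. DESeq2 called 1 of the 24, the kinase gene Prkcd (log2 fold change 0.56, adjusted p = 0.0464), where it called 1.13% of all genes. Of 22 regulators of chemokine genes, led by Nfkbia, 21 were tested and 0 passed, with a median of 0.27. Among these, the likelihood ratio test, which called 0.777% of all genes, called Spi1, which encodes PU.1 (adjusted p = 0.00105), and DESeq2 called Spi1 (adjusted p = 0.000247) and Tnfaip3, an inhibitor of NF-kB signalling (adjusted p = 0.0240). Spi1 measured 28.1 and 31.0 CPM in WT and 86.4, 84.3, 55.0 and 99.2 CPM in Cebpb ΔM, without overlap (2.70-fold). The quasi-likelihood test with the replicate block also called Spi1 (adjusted p = 0.0272), where it called 36 genes higher and 53 lower. In MECs 0 of the 21 regulators tested passed the quasi-likelihood test, while the likelihood ratio test and DESeq2 called Cebpd, a factor of the same family as Cebpb (log2 fold change 1.19, adjusted p = 0.122 by the quasi-likelihood test, 0.00468 by the likelihood ratio test and 0.00597 by DESeq2). With the replicate block, the quasi-likelihood test called Cebpd too (adjusted p = 0.00509).

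Across the 6 macrophage libraries, the genes nearest to each ligand were found by the root mean square distance of centred log2 CPM over 17772 genes, as a description. For Ccl24 the nearest was Ear2, at 0.155, then Ly86 and Ccdc69, and Ccl8 ranked 4. For Ccl8 they were Gm2810, Lrrc24 and Borcs6, with Ccl24 at rank 14. Ccl6 was nearest to Dok2, Ninj1 and Hal, with Ccl9 at rank 4, and Ccl9 to Gda, C5ar1 and Slc8b1, with Ccl6 at rank 5, at a distance of 0.109. Ccl2 was nearest to Psmb10, Tlcd2 and Sat1, and Ccl7 to Etv3, Nexn and Iba57. Ccl4 was nearest to Hcls1, Arhgap30 and Mitf, Ccl3 to B930086L07Rik, Agt and Fam193b, Ccl5 to Fgf15, 1700066M21Rik and Rgs14, and Ccl12 to Runx3, 9430069I07Rik and Kif23. These patterns share libraries and the change in macrophage markers.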

How the data were processed

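RNA sequencing of 10 libraries was used, 4 of MECs and 6 of macrophages. The authors trimmed reads with Trimmomatic, aligned them to GRCm38 with HISAT2 and assigned them to Ensembl release 100 genes in featureCounts (version 1.6.2), as strand-specific read pairs of mapping quality 10 or more. They deposited raw counts per gene. A reference table named 55141 of the 55487 genes.

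A gene was tested if it was 300 nt or longer and exceeded 1 CPM in 2 or more libraries of its experiment. Genotypes were compared with edgeR (version 4.0.16, R version 4.3.3), using TMM scaling, the quasi-likelihood test and Benjamini-Hochberg adjustment over all genes tested, with a threshold of 0.05. Cell types and the interaction were fitted over all 10 libraries. Alternatives included DESeq2 (version 1.42.0), the likelihood ratio test, other scaling and filters, a replicate block and each library left out. The code was tested on simulated data. Counting intervals (95%, exact) and the floor of 3 counts cover counting error only. Named genes were the members, the highest gene per kb of each list, and the 3 genes nearest each member. Any pathway list gene past the quasi-likelihood threshold for genotype or interaction without the block was also to be named (there were 0). Epx, Ear6, Prg2, Siglecf, Siglech, Cd209a, Cd4, Ccr3, Spi1, Tnfaip3, Cebpd and Prkcd were named after their values were seen. So were Krt14, Krt5, Krt19, Krt8, Krt18, Oxtr, Acta2, Csn1s1, Csn2, Csn1s2a, Lalba, C1qa, C1qb and C1qc. Members and lists were chosen with earlier results of these data known. Counts over the list of CC receptors are not reported here.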

Additional observations from a re-analysis of the deposited data

How the results depend on the processing

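The likelihood ratio test and DESeq2 each called 2 members for genotype in macrophages, where the quasi-likelihood test called 0, and the other alternatives run for that comparison called 0. In MECs the count was 0 to 1 with a library left out, the 1 being Ccl5 without Cebpb ΔM 3, where 354 of 15318 genes were called with 1 Cebpb ΔM library left, assumed to vary like the WT libraries. Under each alternative run that kept 2 or more libraries in every group, the cell type comparison called 9 members and the interaction 0. Among the 9, Ccl3, Ccl4, Ccl6, Ccl12 and Ccl24 stayed below 1 CPM in every MEC library. For these the repeated call is no test of direction.

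With libraries scaled to the macrophage markers, 7 log2 fold changes in macrophages turned negative, to -0.46 for Ccl2, -0.18 for Ccl7, -0.13 for Ccl12, -0.31 for Ccl9, -0.20 for Ccl6, -0.46 for Ccl3 and -0.14 for Ccl4. Of all 17772 genes tested, 1700 were above 0 on that scale. With the marker level as a covariate, Ccl9 moved to -1.02, Ccl6 to -0.80 and Ccl3 to -0.43, while the other 7 stayed above 0, Ccl12 at 1.83 beside 0.62 without the covariate and not called, and the median was 0.41. With replicates 4 and 5 only, Ccl9 was at -0.012. Both marker alternatives were chosen after seeing the data, and the cause was not tested.

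With each library left out in turn, the log2 fold changes that turned sign ranged in macrophages from -0.066 (without WT 4) to 1.02 for Ccl9 and from -0.15 (without WT 4) to 0.73 for Ccl3. In MECs they ranged from -0.38 to 0.39 for Ccl2, from -0.21 to 0.45 for Ccl7, from -0.47 to 0.76 for Ccl8, from -0.26 to 0.36 for Ccl9 and from -1.85 (without Cebpb ΔM 1) to 1.58 (without Cebpb ΔM 3) for Ccl5. Between cell types in Cebpb ΔM, Ccl5 ranged from -1.15 to 2.33 (without MEC Cebpb ΔM 1). In the interaction the ranges were -0.058 to 0.76 for Ccl2, -0.41 to 3.07 for Ccl5, -0.42 to 0.86 for Ccl9, -0.064 to 2.61 for Ccl6, -1.61 to 0.30 for Ccl3 and -0.22 to 2.67 for Ccl4.

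The labels do not say whether libraries of the same replicate number are pairs. Correlations of deviations were 0.13 and -0.09 for macrophage replicates 4 and 5 and 0.11 in MECs. With 2 WT libraries per cell type these values are not independent, so they cannot decide it. With the replicate block, 0 members were called in macrophages, MECs or the interaction, where Ccl9 moved to -0.087. In macrophages the block fit called 36 genes higher and 53 lower, where the test without the block called 0. In MECs the block fit called 183 higher and 46 lower of 15698, where the test without the block called 7 and 1. The tests rest on 2 WT macrophage libraries, and on 2 libraries of each genotype in MECs, and the smallest difference they could detect was not measured.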
